A study of Bos taurus with 30 samples.

Results

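The miR-23, miR-27 and miR-24 microRNAs come from paired clusters, and their levels were measured by sequencing the small RNA of anterior pituitaries from 30 bull calves of the Holstein-Friesian breed. The members were chosen by name, as every bovine mature miRNA row called miR-23, miR-24 or miR-27, which gave 8 rows of the 1030 in the table. They were bta-miR-23a, bta-miR-23b-3p, bta-miR-23b-5p, bta-miR-24, bta-miR-24-3p, bta-miR-27a-3p, bta-miR-27a-5p and bta-miR-27b. Between weeks 2 and 12 of life, the 15 calves of the high plane of nutrition (HI) were offered 1.5 kg of milk replacer per day in 10 litres with concentrate ad libitum. The 15 calves of the moderate plane (MOD) were offered 0.5 kg in 4 litres with 0.5 kg of concentrate. The expected gains were 1.0 and 0.5 kg per day. All calves were killed at 12 weeks, each library came from 1 calf, and the tissue was a mixture of hormone-producing, vascular and connective cells. In such bulk tissue, fewer cells of a type and less RNA per cell cannot be told apart.

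A miRNA is a short RNA cut from a hairpin precursor, and it guides the silencing of mRNAs that pair with its seed, the bases near its 5′ end. The miR-23a, miR-27a and miR-24-2 hairpins are made from 1 primary transcript, and the miR-23b, miR-27b and miR-24-1 hairpins from another. The sister miRNAs, miR-23a with miR-23b and miR-27a with miR-27b, share their seed, and the mature miR-24-3p of both clusters is the same RNA. In other tissues the clusters are known for roles in blood vessel growth. MiR-27 is known for its repression of genes of fat cell formation and lipid metabolism, miR-23 for its repression of glutaminase, and miR-24 for its repression of cell cycle genes. In the RefSeq annotation (ARS-UCD2.0), MIR23A, MIR27A and MIR24-2 followed each other within LOC132345691, a gene listed as protein coding. MIR23B, MIR27B and MIR24-1 followed each other within AOPEP, which encodes an aminopeptidase. The 2 sources of miR-24-3p cannot be told apart in these reads.

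The libraries held 6650492 to 11086524 miRNA reads in HI calves and 7685030 to 9916490 in MOD calves. At these depths 3 reads stood for 0.266 to 0.419 CPM (counts scaled to a common library size and between libraries by the trimmed mean of M-values, TMM). Endocrine content was checked with miR-375 and miR-7, both known from endocrine cells, which had means of 146057 and 17064 CPM. These levels do not set the pituitary apart from other endocrine tissue. Earlier work on these files had used other miRNAs to set apart the libraries of 9 calves, 5 HI and 4 MOD, whose label numbers are the highest, from the other 21. What the label numbers stand for is not given, so several results are given for both sets as well. Single libraries are named by diet and a replicate number that carries no further meaning.

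The miR-27 pair was far more abundant than its cluster partners in every calf. MiR-27b, the sister from the AOPEP locus, ranged from 35955 CPM over a median of 47472 to 51659 in HI calves, and from 39352 over 48932 to 60365 in MOD calves. MiR-27a-3p ranged from 25064 over 34521 to 39476 CPM in HI calves and from 27064 over 35992 to 47398 in MOD calves. The diets overlapped widely for both, with 3 MOD calves above the highest HI calf and 3 HI calves below the lowest MOD calf for miR-27b. MOD replicate 4 was the highest library for both, and the lowest were HI replicate 15 for miR-27b and HI replicate 7 for miR-27a-3p. These were the 6th and 7th most abundant of all miRNA rows by mean CPM. Together they held 8.02% of all miRNA reads on average, from 6.43% to 9.88% of a library. How reads that match both sisters were assigned is not given, so this sum could count a read in both rows. MiR-27b alone held 4.63% on average.

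The miR-23 pair and miR-24-3p stood at a lower level. MiR-23b-3p ranged from 1197 over a median of 1679 to 2295 CPM in HI calves and from 1324 over 1628 to 1884 in MOD calves. MiR-23a ranged from 448 over 662 to 946 CPM in HI calves and from 531 over 665 to 790 in MOD calves. For both, the MOD calves lay inside the HI range, HI replicate 7 was the highest library, and the lowest were HI replicate 14 for miR-23b-3p and HI replicate 15 for miR-23a. MiR-24-3p ranged from 1317 over 1575 to 1830 CPM in HI calves and from 1278 over 1542 to 1786 in MOD calves. Here 2 HI calves lay above the highest MOD calf and 1 MOD calf below the lowest HI calf. These miRNAs held places 55, 83 and 58 by mean CPM, and miR-23a and miR-23b-3p together took 0.233% of the reads. This sum, too, could count a read in both rows.

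The other rows were rare. The row named bta-miR-24, which carries no arm in its name, ranged from 6.47 over 10.6 to 12.4 CPM in HI calves and from 7.12 over 9.63 to 14.6 in MOD calves. MiR-27a-5p, from the other arm of the miR-27a hairpin, ranged from 0.977 over 2.24 to 4.35 CPM in HI calves and from 1.56 over 2.50 to 3.24 in MOD calves. It rested on 7 to 49 reads per library. MiR-23b-5p had 0 to 6 reads per library, with at most 3 reads in 11 HI and 11 MOD calves, so it was at the limit of detection and did not pass the filter on low values. MiR-27a-3p outnumbered miR-27a-5p in reads by 6114 to 35596 times, with a median of 13779. MiR-24-3p outnumbered bta-miR-24 by 99.9 to 225 times, with a median of 157.

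**Figure D1:**
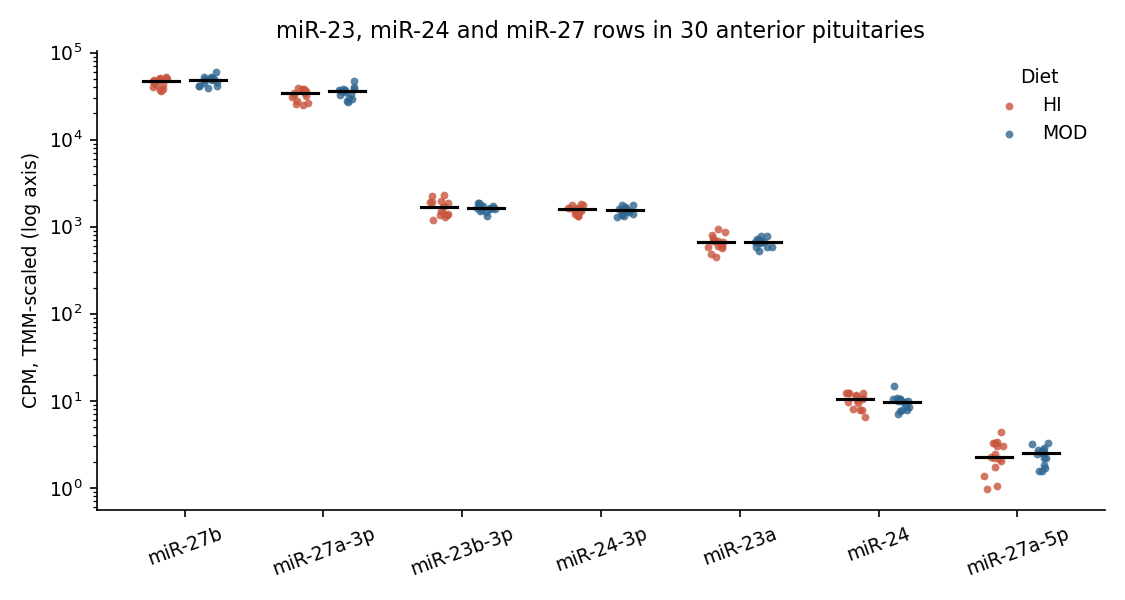
Level of the 7 tested rows in each calf (CPM, log axis), with HI and MOD calves as points and the median of each diet as a bar. The miR-27 pair lies at 25064 CPM or more, miR-23b-3p, miR-24-3p and miR-23a between 448 and 2295 CPM, and the diets overlap for every row.

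The order of the levels was nearly fixed. CPM here counts reads of whole miRNAs with no correction for length, and differences in capture between sequences were not measured, so the order is one of reads. MiR-27b was above miR-27a-3p, and miR-27a-3p above miR-23b-3p, in 30 of 30 libraries. MiR-24-3p was above miR-23a, miR-23a above bta-miR-24, bta-miR-24 above miR-27a-5p and miR-27a-5p above miR-23b-5p in 30 of 30. Only the neighbours miR-23b-3p and miR-24-3p changed places, with miR-23b-3p higher in 20 of 30 libraries. Their means of 1677 ± 350 and 1561 ± 162 CPM in HI calves (SD, n = 15) lay within 1 SD of each other. The MOD means, 1646 CPM for miR-23b-3p and 1528 ± 153 CPM for miR-24-3p (SD, n = 15), did so too. These SDs are between calves and leave out that both rows were read in the same libraries. There miR-23b-3p was the higher in 0 of the 9 calves with the highest label numbers and in 20 of the other 21.

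The diet comparison asked whether the plane of nutrition changed the level of these miRNAs in the pituitary. In the limma fit over 419 tested miRNAs, 0 of 7 tested members passed a false discovery rate (FDR) of 0.1, against 15 of all 419 (3.58%). At an unadjusted p under 0.05 the members again counted 0, against a share of 12.6% of all tested miRNAs. The quasi-likelihood test of edgeR on the recovered reads called 0 of 7 members with a background of 4.77%, and DESeq2 called 0 of 7 with a background of 5.73%.

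The estimates were small and their intervals narrow. On the log2(CPM + 1) scale, miR-27a-3p differed between HI and MOD by -0.09 (SE 0.08, 95% interval -0.25 to 0.07, limma FDR 0.731). For miR-27b the log2 fold change was -0.07 (SE 0.06, interval -0.20 to 0.06, limma FDR 0.732). The median of the MOD calves was exceeded by 5 of 15 HI calves for miR-27a-3p and by 6 of 15 for miR-27b. MiR-23a differed by -0.01 (SE 0.08, interval -0.18 to 0.15, limma FDR 0.978) and miR-23b-3p by 0.00 (SE 0.08, interval -0.16 to 0.17, limma FDR 0.984). The sign of the miR-23a difference turned with the scaling of the libraries, to 0.05 on total reads. MiR-24-3p differed by 0.03 (SE 0.05, interval -0.08 to 0.14, limma FDR 0.920). The rare rows gave 0.08 (interval -0.11 to 0.27, limma FDR 0.853) for bta-miR-24 and -0.02 (interval -0.27 to 0.23, limma FDR 0.983) for miR-27a-5p. All 7 intervals lay within the 1.5-fold change the study used as its threshold, which is 0.585 on the log2 scale. Adding 1 CPM shrinks differences in a row as rare as miR-27a-5p. With 0.1 CPM added instead, the miR-27a-5p interval was -0.40 to 0.31.

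**Figure D2:**
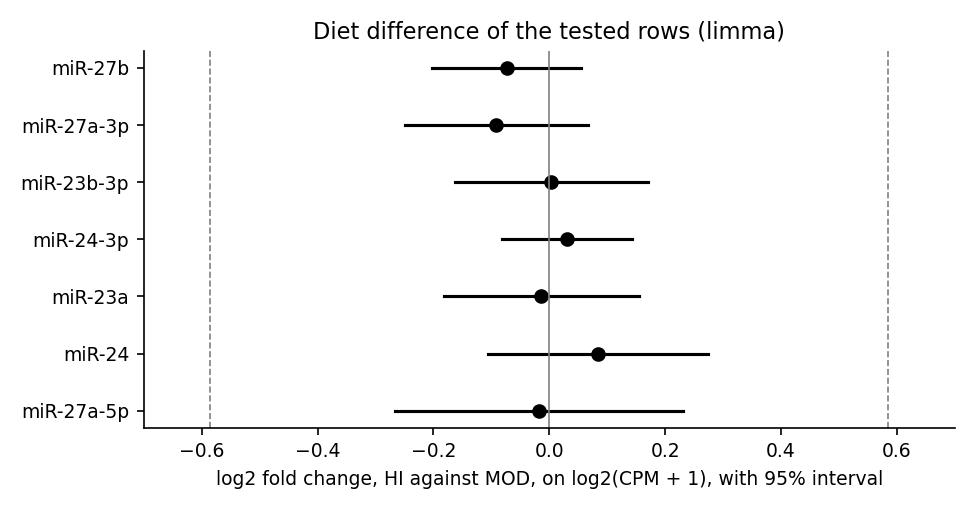
Log2 fold change of HI against MOD for the 7 tested rows on log2(CPM + 1), as points with 95% intervals from limma, with dashed lines at a 1.5-fold change in either direction (0.585). Every interval crosses 0 and ends inside the dashed lines.

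Ratios of reads within a library do not depend on how libraries are scaled, and they were compared between diets for the sisters and for the partners of a cluster. The miR-27a-3p to miR-27b ratio was nearly constant, from 0.679 over a median of 0.729 to 0.785 in 30 calves, which is a 1.16-fold range. The miR-23a to miR-23b-3p ratio ran from 0.344 over 0.404 to 0.471. The ratios across a cluster were wider. MiR-23a to miR-27a-3p ran from 0.0124 over 0.0193 to 0.0377, and miR-23b-3p to miR-27b from 0.0234 over 0.0358 to 0.0622. HI replicate 7 was at the top of both. Its summed miR-27 reads were 19.1 times its miR-23 reads, against 52.8 times in HI replicate 14 and medians of 33.1 in HI and 36.3 in MOD calves.

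No ratio differed between the diets beyond the spread between calves. The HI minus MOD difference in the mean log2 ratio was -0.02 for miR-23a to miR-23b-3p (two-sided permutation test, p = 0.666) and -0.02 for miR-27a-3p to miR-27b (p = 0.342). It was 0.08 for miR-23a to miR-27a-3p (p = 0.534) and 0.08 for miR-23b-3p to miR-27b (p = 0.482). After adjustment over the 4 ratios every p was 0.666. Leaving out 1 calf gave 0.01 to 0.12 for miR-23a to miR-27a-3p and 0.02 to 0.12 for miR-23b-3p to miR-27b. Both pointed in opposite directions in the sets by label number. For miR-23b-3p to miR-27b the difference was -0.20 in the 9 calves (exact permutation test, p = 0.278) and 0.22 in the other 21 (exact permutation test, p = 0.0805). For miR-23a to miR-27a-3p it was -0.13 (exact permutation test, p = 0.452) and 0.19 (exact permutation test, p = 0.220). How reads that match both sisters were assigned is not given in the sources used here, so the split between miR-23a and miR-23b-3p, and between miR-27a-3p and miR-27b, is uncertain. The same holds for the summed miR-27 and miR-23 reads.

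**Figure D3:**
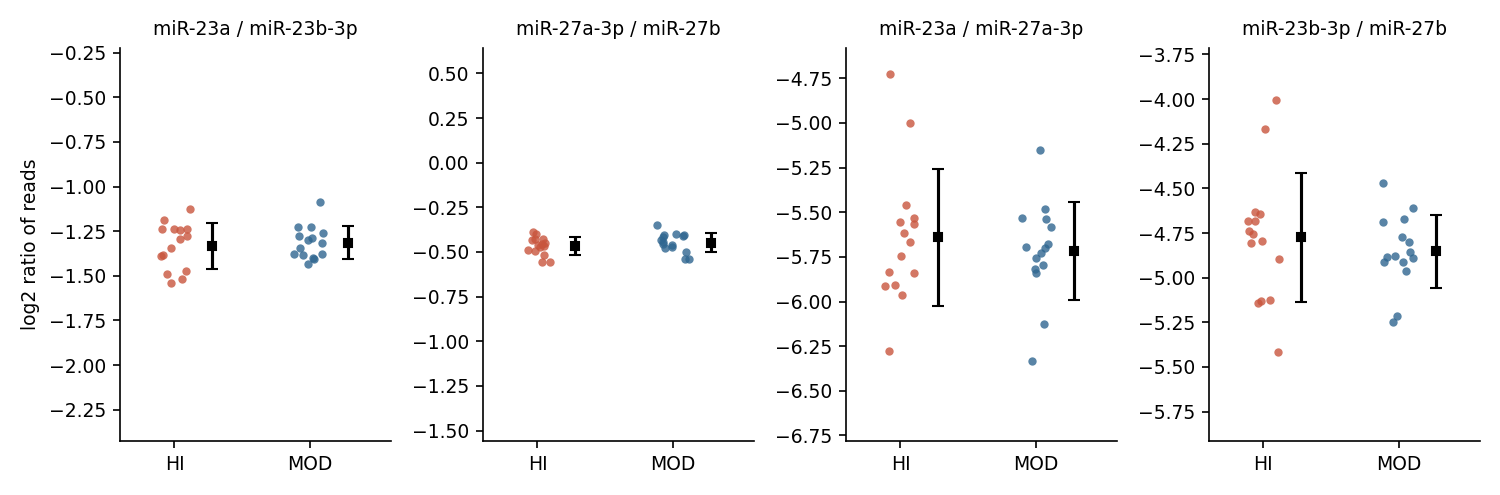
Log2 ratio of reads in each calf for the 4 pairs, with HI and MOD calves as points and the mean with SD as a square with bars. Every panel spans the same height on the log2 scale, and the miR-27a-3p to miR-27b ratio has the smallest spread (1.16-fold from lowest to highest) while miR-23a to miR-27a-3p has the widest.

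Across calves the sisters moved together, and the miR-23 and miR-27 partners of a cluster did not. The values below are Pearson correlations of log2(CPM + 1) over 30 libraries, each diet centred on its own mean, and serve as descriptions, since all points of a library share its depth and scaling. MiR-27a-3p and miR-27b had r = 0.99, and each was the nearest of 418 other miRNAs to the other. MiR-23a and miR-23b-3p had r = 0.88. How reads that match both sisters were assigned is not given, so whether sister rows are separate measurements is uncertain. MiR-23a with miR-27a-3p, its cluster partner, had r = -0.08, and miR-23b-3p with miR-27b had r = -0.03. MiR-27a-3p was the 258th of 418 miRNAs in likeness to miR-23a, and miR-27b the 225th in likeness to miR-23b-3p. MiR-24-3p followed the miR-23 pair, with r = 0.57 to miR-23a and r = 0.59 to miR-23b-3p, and ran against miR-27a-3p with r = -0.42. With total reads as scaling, r was -0.30 for miR-23a with miR-27a-3p and -0.16 for miR-23b-3p with miR-27b. Centred also on the sets of 9 and 21 calves described above, these values were -0.35 and -0.27, and those of the sisters 0.77 for miR-23 and 0.99 for miR-27. The arms of the miR-27a hairpin, miR-27a-3p and the rare miR-27a-5p, had r = 0.00. Counting error of miR-27a-5p at its median reads was 21.8%, beside an SD of 22.9% of the mean in MOD and 39.2% in HI calves. This r therefore cannot tell whether the arms varied together.

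**Figure D4:**
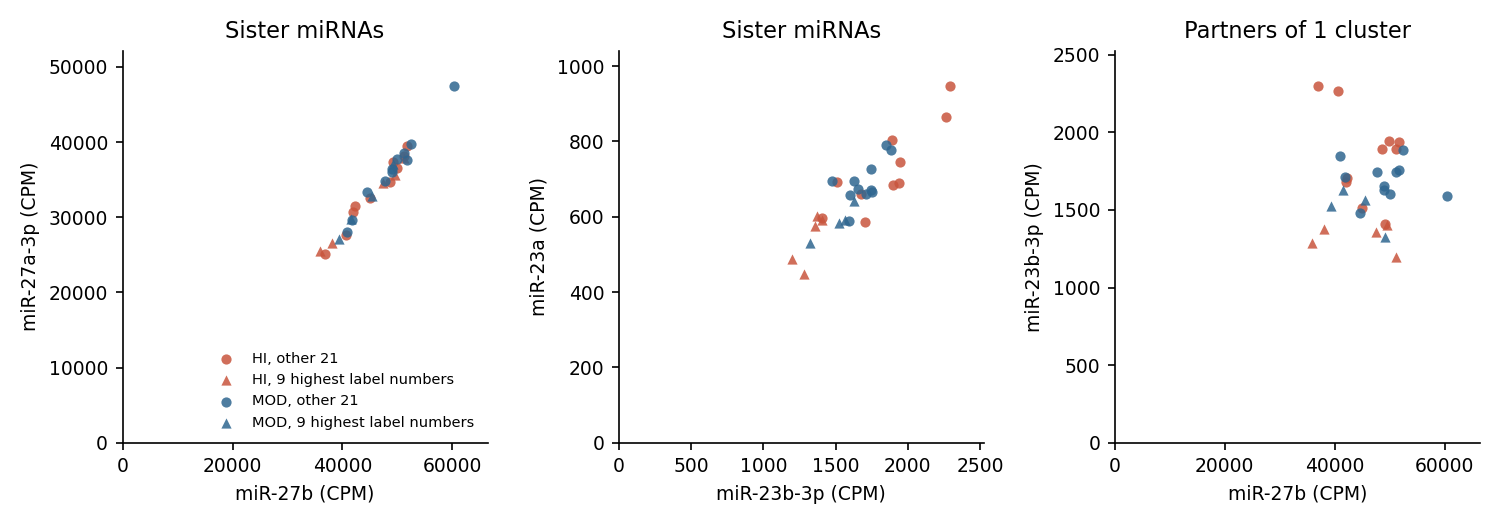
Levels (CPM) of the sisters miR-27a-3p and miR-27b, of the sisters miR-23a and miR-23b-3p, and of the cluster partners miR-23b-3p and miR-27b, 1 point per calf, with diets by colour and the 9 calves with the highest label numbers as triangles. The sisters lie along a line (r = 0.99 and 0.88), and the partners show none (r = -0.03). How reads that match both sisters were assigned is not given.

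The nearest row to miR-23b-3p was not a separate measurement. The bta-miR-10174-3p row exceeded it by 28 to 75 reads in all 30 libraries, at 1.002 to 1.005 times its reads, and r was 1.00, so how reads were divided between these rows is uncertain. Recovered reads ended in a fraction for miR-23b-3p in 15 libraries and for miR-24-3p in 13. They were whole for miR-23a, miR-27a-3p and miR-27b in all libraries. Beside that row, the miRNAs nearest to miR-23a were miR-200c (r = 0.75), miR-101 (r = 0.74), miR-33b and miR-16a (both r = 0.73). With the sets centred as well, these were 0.66 for miR-200c, 0.61 for miR-101, 0.58 for miR-33b and 0.77 for miR-16a. Those nearest to miR-23b-3p were miR-378c (r = 0.72), then miR-98, miR-411c-3p and miR-2299-5p (r = 0.68 to 0.70). Centred also on the sets, these were 0.46 for miR-378c, 0.44 for miR-98, 0.54 for miR-411c-3p and 0.58 for miR-2299-5p, in another order. MiR-24-3p was nearest to miR-29b (r = 0.74), followed by miR-7, miR-200b and miR-379 (r = 0.62 to 0.63). MiR-27a-3p was nearest to miR-194 (r = 0.76), followed by miR-1468, miR-22-3p, miR-151-3p and miR-369-5p (r = 0.73 to 0.74). For miR-27b these were miR-194 (r = 0.76), miR-369-5p, miR-338, miR-151-3p and miR-487b (r = 0.70 to 0.74). Bta-miR-24 was nearest to miR-299 (r = 0.76), miR-296-5p, miR-2483-5p and miR-154b, then the bta-miR-10174-3p row (r = 0.65 to 0.70). When centred on the sets, miR-299 fell to 0.58, the bta-miR-10174-3p row to 0.37 and the others to 0.55 to 0.60. For miR-27a-5p the 5 nearest rows were all of the miR-2285 family, with r of at most 0.54.

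The miR-23 pair differed between the sets of calves by label number. MiR-23b-3p ranged from 1197 over 1375 to 1628 CPM in the 9 calves with the highest label numbers and from 1409 over 1744 to 2295 CPM in the other 21. MiR-23a ranged from 448 over 583 to 642 CPM in the 9 and from 587 over 690 to 946 CPM in the 21. In all 9 calves both miRNAs, and also bta-miR-24, lay below the median of the 21, and the mean differences on the log2 scale were -0.33, -0.33 and -0.32. MiR-24-3p did not follow, at 1335 over 1551 to 1759 CPM against 1278 over 1544 to 1830 CPM, a difference of -0.01. MiR-27a-3p and miR-27b differed by -0.13 and -0.10. The change of place between miR-23b-3p and miR-24-3p fell along the same line, with miR-23b-3p the higher in 0 of the 9 calves and in 20 of the 21. The ratio of miR-24-3p to miR-23b-3p was 1.00 to 1.18 in the 9 and 0.780 to 1.08 in the 21. The border between the sets was drawn with earlier results of these data known, so these values carry no test.

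Within the sets the diet differences of miR-23b-3p pointed in opposite directions. The HI minus MOD difference on the log2 scale was -0.19 among the 9 (exact permutation test, p = 0.0635) and 0.12 among the 21 (exact permutation test, p = 0.140). For miR-24-3p the values were -0.14 (exact permutation test, p = 0.159) and 0.10 (exact permutation test, p = 0.119). The lowest p adjusted over the 16 tests within sets was 0.451 (exact permutation tests), so no difference within a set passed. The smallest p that the 9 calves allow is 0.00794, which comes to 0.127 over 16 tests, so a single member could not have passed there. The difference of the diet effects between the sets was -0.31 for miR-23b-3p (limma unadjusted p = 0.0223, FDR 0.764) and -0.24 for miR-24-3p (limma unadjusted p = 0.0442, FDR 0.786). Thus 2 of 7 members had an unadjusted p under 0.05 in this interaction, against 5.01% of all tested miRNAs. At FDR 0.1, 0 of 7 passed, against 0% of all tested. The interaction was added after seeing the data, on sets drawn with earlier results known. The 2 members were correlated (r = 0.59, and 0.72 centred also on the sets), so they are not separate results.

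**Figure D5:**
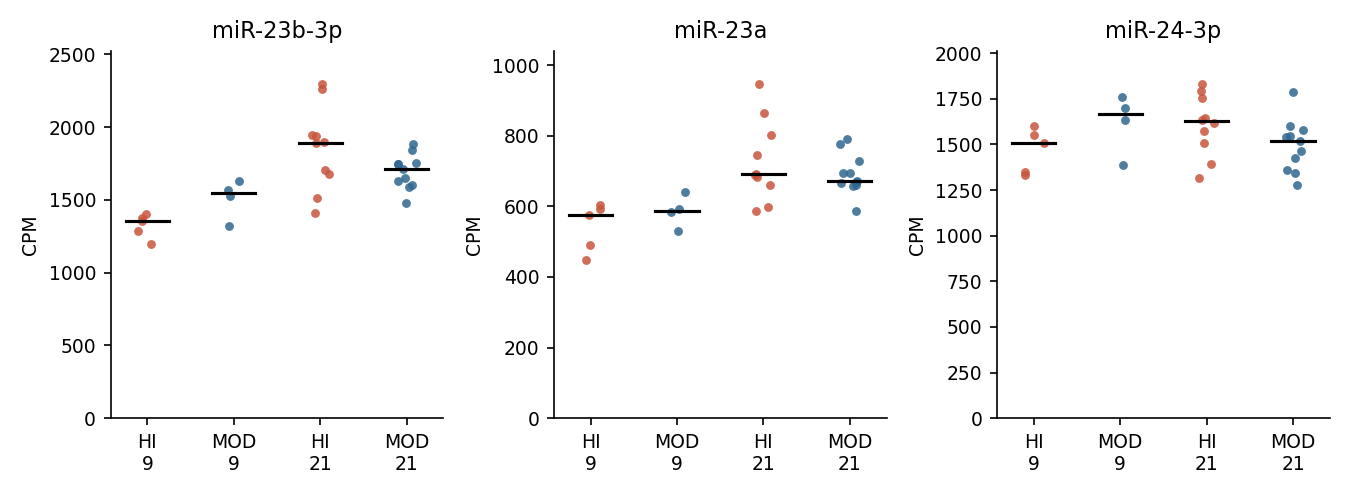
Levels (CPM) of miR-23b-3p, miR-23a and miR-24-3p in the 9 calves with the highest label numbers and in the other 21, by diet, with 1 point per calf and the median as a bar. All 9 calves lie below the median of the 21 for both miR-23 miRNAs and not for miR-24-3p.

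Over all calves, the miR-23 pair had a wider spread in HI than in MOD. The SD of miR-23b-3p on the log2 scale was 2.30 times as large in HI as in MOD, and that of miR-23a 1.86 times. Among the 159 miRNAs with a mean above 100 CPM the median of this ratio was 1.22, with 2 miRNAs above miR-23b-3p and 14 above miR-23a. MiR-24-3p, miR-27a-3p and miR-27b had ratios of 1.05, 1.04 and 1.11. For miR-23b-3p the direction turned between the sets, with SDs of 289 CPM in HI against 119 CPM in MOD among the 21 calves and of 83.3 against 132 CPM among the 9. For miR-23a they were 115 against 57.1 CPM among the 21 and 69.0 against 45.1 CPM among the 9. The difference in spread was not tested.

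Markers of the cell types in the tissue were set beside these values. The summed endothelial list (miR-126-3p, miR-126-5p, miR-221, miR-222 and miR-130a) ran from 11840 over 14820 to 17520 CPM in HI and from 13215 over 15244 to 18601 in MOD calves. Of its 5 tested members 0 passed FDR 0.1 by limma, beside 3.58% of all 419 tested. Their median log2 fold change was -0.02 against 0.02 over all tested. Its sum, mostly miR-126-5p, had r = 0.40 with miR-23a, 0.26 with miR-23b-3p and 0.07 with miR-27a-3p. Singly, miR-126-5p had r = 0.45 with miR-23a, and the other 4 had r of -0.19 to 0.01. Of the endocrine pair, miR-375 ran against the miR-23 pair, with r = -0.72 to miR-23a and -0.79 to miR-23b-3p, and miR-7 had r = 0.17 and 0.03. Their sum, mostly miR-375, had r = -0.68 and -0.77. It ran from 119220 over 151709 to 212047 CPM in HI calves and from 134487 over 160277 to 209427 in MOD calves, and its median was 192588 CPM in the 9 calves with the highest label numbers and 150264 in the other 21. In the neural list, miR-128 (mean 465 CPM) had r = -0.86 with miR-23a and -0.75 with miR-23b-3p, and miR-9-5p (mean 29.2 CPM) had r = 0.08 and 0.31. The miR-124a, miR-124b and miR-9-3p rows had means of 0.258 to 0.755 CPM and were not tested. The sum of the list, almost all miR-128, ran from 345 to 933 CPM in HI calves and from 384 to 617 in MOD calves, highest in HI replicate 15 and lowest in HI replicate 7. The median of the neural sum was 515 CPM in the 9 calves and 467 in the other 21. The r values of the lists were centred on diet and not on the sets, so they also hold differences between the sets. The part of these cell types in the miR-23 values was not tested.

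The remaining cell lists also held 0 members at FDR 0.1 by limma, beside 3.58% of all tested miRNAs. Their median log2 fold changes were 0.08 for smooth muscle (2 tested), 0.16 for fibroblast (6), 0.00 for epithelial (5), 0.46 for red blood cell (3) and 0.11 for white blood cell miRNAs (6), beside -0.10 for the endocrine pair and 0.19 for the 2 tested neural rows. In the red blood cell list miR-144 and miR-451 gave 0.46 and 0.55 (limma FDR 0.115 and 0.190), and miR-486, its most abundant member, gave -0.27. The paper listed miR-144 and miR-451 as differentially expressed and higher in HI by its own edgeR comparison. The sum of the red blood cell list had a median of 17406 CPM in HI against 20588 CPM in MOD. With miR-23a and miR-23b-3p, this sum had r = 0.41 and 0.36, and the fibroblast sum 0.38 and 0.46. For the smooth muscle sum r was 0.23 and 0.34, for the epithelial 0.31 and 0.16, and for the white blood cell -0.05 and -0.09. Single epithelial rows ran from r = -0.75 (miR-429) to 0.75 (miR-200c) with miR-23a. With miR-23b-3p the same rows had r = -0.79 and 0.63. HI replicate 1 stood apart with a smooth muscle sum of 182221 CPM against 80855 in the next library, and it was among the highest for both miR-23 miRNAs. Without HI replicate 1 the miR-23b-3p log2 fold change was -0.03 (limma FDR 0.957). Without HI replicate 7, the highest library for both, it was also -0.03 (limma FDR 0.941). The part of smooth muscle and the other cell types in the miR-23 values was not tested.

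Among miRNAs of lipid and energy metabolism, with which miR-27 is often discussed, 2 of 7 tested passed FDR 0.1, 1 in each direction, beside 3.58% of all tested miRNAs. The list was written with earlier results of these data known, so this count is only a description. MiR-378, which lies within a gene for a regulator of mitochondrial energy use, was higher in HI by 0.28 (limma FDR 0.0874). The miR-378c and miR-378d rows, outside the list, gave 0.24 (limma FDR 0.274) and -0.05 (limma FDR 0.934). MiR-33a, which lies within the SREBF2 gene and represses cholesterol export, was lower, with a log2 fold change of -0.23 (limma FDR 0.0396). The miR-33b row, also in the list, gave -0.14 (limma FDR 0.721). The median log2 fold change of the list was 0.04, against 0.02 over all tested miRNAs. Neither miR-378 nor miR-33a passed the 1.5-fold threshold, and both miR-27 sisters had FDR values of 0.73 in the same fit.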

How the data were processed

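Small RNA of 30 anterior pituitaries was sequenced. The authors checked reads with FastQC 0.11.8 (per the submitters' processing notes), kept those of 15 to 28 bases after adapter trimming, removed other short RNAs, aligned the rest with Bowtie to ARS-UCD1.2 and counted known bovine miRNAs with miRDeep2. The deposited values are a signal, CPM scaled by edgeR's TMM factors, and not counts. In each library low values were whole multiples of 1 step, which gave back the reads. At least 93.7% of low values were whole within 0.1 read.

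The main test was limma 3.58.1 (R 4.3.3) on log2(CPM + 1) of the 419 miRNAs passing filterByExpr, with Benjamini-Hochberg adjustment over all and no covariate. edgeR 4.0.16 and DESeq2 1.42.0 on recovered reads were alternatives, with other scalings, filters, a pseudocount of 0.1, label number blocks and single calves left out. Ratios used 100000 permutations. Scripts were tested on simulated data.

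All members found by name are described, with the 5 nearest miRNAs by correlation and the cell type and lipid lists. Members and lists were chosen with earlier results of these data known. Groups came from the labels. Depth limited the 3 rare rows.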

Additional observations from a re-analysis of the deposited data

How the results depend on the processing

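No member passed FDR 0.1 under any alternative, with FDR values of 0.484 to 1.00 and log2 fold changes of at most 0.14 in size. The number of all miRNAs at FDR 0.1 was 15 (8 higher and 7 lower in HI), 24 with DESeq2, 20 with edgeR (14 and 6), 18 on total reads (16 higher and 2 lower), 10 with upper quartile scaling (8 and 2), 12 with label number range as a block and 14 to 21 when 1 calf was left out. Signs turned only for values near 0. MiR-23a, at -0.01, became 0.0202 with edgeR, 0.0492 on total reads, 0.0202 with label number range as a block and 0.00806 with the set of 9 as a block. MiR-27a-5p, at -0.02, became 0.0566 with edgeR, 0.0351 with DESeq2, 0.0245 on total reads and 0.0132 with label number range as a block. The log2 ratio of miR-23a to miR-23b-3p, at -0.02, became 0.0258 by medians and 0.00855 within label number ranges. Leaving out 1 calf gave -0.0522 to 0.0247 for miR-23a, -0.0307 to 0.0363 for miR-23b-3p and -0.0678 to 0.0347 for miR-27a-5p, and turned the sign of no other member or ratio. MiR-23b-5p could be fitted only with no filter, at 0.08 (limma FDR 0.868). Beyond the 5 members planned, the alternatives for the other 3 and the diet by set interaction were added after seeing the data. According to the paper, calves were assigned to the diets in blocks by age, body weight, sire and farm. The labels name no such block, and no number in them pairs an HI with a MOD calf. No paired analysis, and none by these blocks, was therefore possible. Counting error at the median reads was 70.7% for miR-23b-5p, 21.8% for miR-27a-5p and 10.7% for bta-miR-24.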
